A study of Mus musculus with 272 samples.

Results

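The immediate early genes outside the AP-1 family examined here were Egr1, Egr2, Egr3, Ier2, Nr4a1, Klf2, Klf4, Klf6, Btg2 and Zfp36. These 10 genes were taken by name from the GENCODE M21 annotation of the mouse mm10 genome, out of 21938 protein-coding genes on the 21 assembled chromosomes, and each name matched 1 gene. Their chromatin was read in MuSCs, the Pax7-expressing stem cells of skeletal muscle. By the study's method for isolating MuSCs, the cells were sorted by FACS as GFP+ cells from hindlimb muscle of Pax7Cas9 mice. In these mice Cre driven from the Pax7 locus switches on Cas9 with EGFP, so cells isolated in this way carried Cas9 expression. The study's ATAC-Seq and ChIP-seq methods did not name the mice. The muscle was digested with collagenase II for 90 min and then with collagenase and dispase for 40 min at 37 °C before sorting. Of 272 samples in the series, the 8 with peak lists were used: ATAC-Seq (open chromatin), H3K4me3 (a mark of promoters), H3K27ac (acetylation found at promoters and enhancers in use) and H3K27me3 (a Polycomb repressive mark), with 2 replicates each. The labels of these 8 samples gave the tissue as skeletal muscle, with no age and no strain, and did not say whether the replicates came from separate mice.

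Immediate early genes are transcribed within minutes of a stimulus without new protein synthesis, because the factors that switch them on are already in the cell. Serum response factor (SRF) binds the CArG box, ETS-family ternary complex factors bind beside it, and CREB binds the sequence TGACGTCA or its TGACG core, so that MAP kinase, calcium and cAMP signals reach the same promoters. Most of the products are transcription factors (the Egr zinc fingers, the orphan receptor Nr4a1, the Krüppel-like factors and the nuclear protein Ier2), while Btg2 restrains proliferation and Zfp36 binds AU-rich elements and speeds mRNA decay. In muscle these genes are known to respond to injury and to tissue dissociation.

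The promoter sequences that carry these response elements are shown first, because each of the printed stretches lay wholly inside an ATAC-Seq peak in both replicates. They were read from GRCm38.p6 (the mm10 build), 5′ to 3′ on the strand of the gene, and capitals mark the named motif on either strand. The Egr2 stretch was chr10:67537787-67537816 (plus strand) and the Zfp36 stretch chr7:28379267-28379296 (minus strand), where annotated exons of other transcripts overlap, so only the site and its flanks are given. The others were chr8:84662853-84662927 (minus strand) for Ier2, chr1:134079156-134079351 (minus strand) for Btg2, chr15:101266583-101266845 (plus strand) for Nr4a1, chr4:55532476-55532709 (minus strand) for Klf4 and chr8:72318833-72319032 (plus strand) for Klf2. The Nr4a1 stretch precedes its second annotated start site.
Egr2, CArG box: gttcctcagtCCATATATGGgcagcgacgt
Zfp36, CArG box: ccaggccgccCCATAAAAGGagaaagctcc
Ier2, full CREB site: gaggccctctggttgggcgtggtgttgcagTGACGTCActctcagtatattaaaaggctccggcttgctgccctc
Btg2, full CREB site: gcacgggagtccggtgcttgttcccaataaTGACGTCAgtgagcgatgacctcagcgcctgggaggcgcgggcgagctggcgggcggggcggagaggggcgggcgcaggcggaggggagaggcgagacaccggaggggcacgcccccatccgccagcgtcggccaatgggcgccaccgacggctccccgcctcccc
Nr4a1, TGACG core: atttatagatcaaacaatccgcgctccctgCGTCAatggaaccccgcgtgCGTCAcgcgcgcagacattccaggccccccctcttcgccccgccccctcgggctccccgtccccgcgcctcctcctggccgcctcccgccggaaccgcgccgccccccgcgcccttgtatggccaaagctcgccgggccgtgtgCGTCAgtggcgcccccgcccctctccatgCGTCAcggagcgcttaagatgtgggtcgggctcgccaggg
Klf4, EGR site: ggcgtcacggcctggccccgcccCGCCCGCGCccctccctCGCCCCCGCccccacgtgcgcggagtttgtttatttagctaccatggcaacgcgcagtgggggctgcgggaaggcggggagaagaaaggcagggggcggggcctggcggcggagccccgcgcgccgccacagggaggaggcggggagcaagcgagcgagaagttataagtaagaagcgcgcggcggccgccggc
Klf2, EGR site: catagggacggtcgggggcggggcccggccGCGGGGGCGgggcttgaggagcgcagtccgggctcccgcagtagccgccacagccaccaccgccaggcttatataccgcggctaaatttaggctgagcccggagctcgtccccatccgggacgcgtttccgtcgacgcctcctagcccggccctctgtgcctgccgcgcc

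In the 300 bases before the annotated start sites, the CArG box, found on either strand, was present for 3 of the 10 genes (Egr1, Egr2 and Zfp36) and for 4.28% of all 21938 protein-coding genes. Counted by start site, 5 of the 26 start sites of the 10 genes had one, against 1.45% of 93513 start sites, and 3 of those 5 were neighbouring Egr2 start sites that shared a single box. The full CREB site TGACGTCA lay before Ier2 and Btg2, in 2 of 10 genes against 3.44% of all genes. Its core TGACG, which each full site contains on both strands, was found for 8 of 10 genes against 39% of all genes. Nr4a1 had 4 cores before its second start site. The EGR site GCGNGGGCG, the sequence bound by the Egr zinc fingers, preceded 5 of 10 genes (Nr4a1, Klf2, Klf4, Btg2 and Zfp36) against 11.5% of all genes. This site is made of G and C, and the windows holding it ran from 65% GC (Zfp36) to 77% (Nr4a1). No share was computed for windows of like GC content. The ETS core CCGGAA (2 of 10 genes, against 27.8%), the TATA box TATAAA (2 of 10, against 32.6%) and the AP-1 site TGANTCA (0 of 10, against 19%) were found in these 300 bases at no higher share than among all genes. Some of the response elements lay further from the start site, in the open regions of the promoter. Of the promoter ATAC-Seq peaks of the 10 genes, 6 of 44 in replicate 1 and 5 of 32 in replicate 2 held a CArG box, against 0.754% and 0.987% of all promoter ATAC-Seq peaks. The TGACG core was in 16 and 17 of these peaks (19.7% and 25.7% of all), the EGR site in 9 and 9 (8.15% and 10.4%), the ETS core in 8 and 8 (14.1% and 18.5%) and the AP-1 site in 6 and 4 (9.72% and 12.8%). By gene, the ETS core was in a promoter ATAC-Seq peak of both replicates for 6 of 10 genes and the AP-1 site for 3 of 10 (Ier2, Klf4 and Zfp36). The share of all genes by this rule was not computed, so these counts by gene have nothing to be set against. The peaks of the 10 genes were longer, with a median of 220 and 355 bp against 154 and 235 bp, and a longer peak has more room for a match. A single Egr1 peak held 5 boxes in each replicate, and Egr3, with none in the 300 bases, had a box in each of 2 open regions upstream of it in both replicates. A sequence match does not show that a factor was bound.

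The promoter window reached 3 kb to each side of every annotated start site, and marked genes were those with an overlapping peak in both replicates. By this rule all 10 genes carried ATAC-Seq, H3K4me3 and H3K27ac peaks, while 67.8% of all protein-coding genes had ATAC-Seq, 60.8% had H3K4me3 and 46.6% had H3K27ac. H3K27me3 marked 2 of 10, Egr2 and Egr3, against 4.81% of all genes. The active state, meaning the first 3 features in both replicates and H3K27me3 in neither, held for 7 of 10 genes against 44.4% of all genes. The exceptions were Egr2 and Egr3, which carried H3K27me3, and Klf2, which had a single weak H3K27me3 peak in replicate 1. Without replicate 1, Klf2 was active too (8 genes), and with peaks limited to a −log10 q of at least 5 no gene was marked by H3K27me3 in both replicates. H3K4me3 and H3K27me3 together marked 2 of 10 genes, against 3.85% of all genes, and all 4 features together marked the same 2, against 0.784% of all genes.

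The strength of a peak was read as its fold enrichment, the signal at the summit over the local background as the peak caller gave it, and it was ranked only within its own list. For medians, percentiles and limits of fold and covered length, the marked genes were all protein-coding genes with a promoter peak in that list. The 10 genes did not share a high fold. In both replicates the strongest promoter peak lay above the median of the marked genes for 4 of 10 genes in ATAC-Seq, 4 in H3K4me3 and 5 in H3K27ac. The share of all marked genes above the median in both replicates was not computed, so these counts only describe the 10 genes. The top 25% of the marked genes in both replicates contained 1 of 10 for ATAC-Seq (Klf2), against 19% of all genes marked in both, 1 of 10 for H3K4me3 (Ier2), against 20.4%, and 4 of 10 for H3K27ac (Ier2, Klf4, Klf6 and Zfp36), against 22.1%. Ranked by −log10 p instead, the counts were 4 for ATAC-Seq and 3 for H3K4me3. Without replicate 1 they were 2 and 3, and without replicate 2 they were 2 and 1. Replicates ordered the genes alike for H3K27ac (Spearman's rho 0.964 over the 10 genes) and ATAC-Seq (0.927), and less closely for H3K4me3 (0.794). Over all genes marked in both replicates the values were 0.921, 0.839 and 0.939, with H3K4me3 the highest. The 10 points of each share a library, so these are descriptions only.

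**Figure D1:**
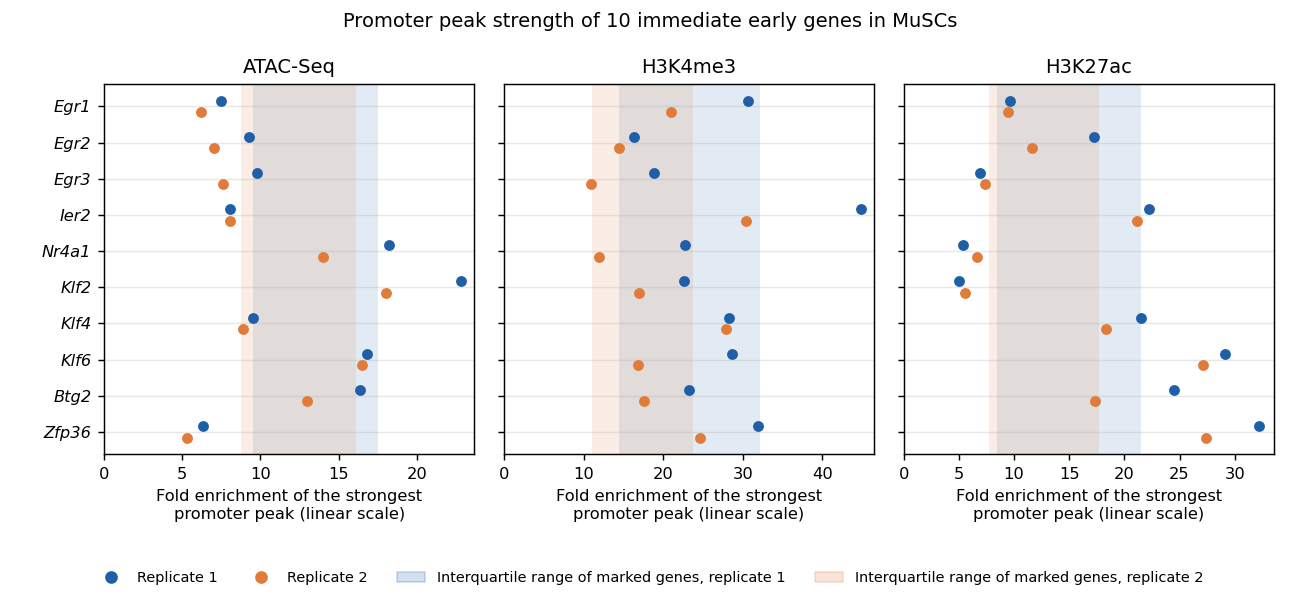
Fold enrichment of the strongest promoter peak of each gene (horizontal axes, linear scale) in ATAC-Seq, H3K4me3 and H3K27ac, with 1 point per replicate and shading for the interquartile range of all marked protein-coding genes in that list. In replicate 1, H3K27ac ran from 4.98 at Klf2 to 32.2 at Zfp36, H3K4me3 from 16.4 at Egr2 to 44.8 at Ier2, and ATAC-Seq from 6.35 at Zfp36 to 22.8 at Klf2.

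A wide H3K4me3 domain was common to 9 of the 10 genes. Peaks overlapping the promoter covered a median of 5102 bases in replicate 1 and 4360 in replicate 2, a mean of 4731 ± 524 (SD of the replicate medians, n = 2), where the median marked gene had 1728 and 1439. In both replicates 9 of 10 genes were in the top 10% by covered length, against 8.61% of the genes marked in both. The 10% limit was chosen after the widths had been seen. Klf2 was the exception, with 3250 and 2429 bases, at the 88.2 and 84.3 percentiles. The widest were Zfp36 with 7890 and 6716 bases and Egr1 with 6894 and 6803 bases, and their order changed between replicates. The genes are short, with a median length of 5243 bp against 17425 bp over all protein-coding genes, and H3K4me3 covered a median of 84.7% and 71.3% of the gene itself, against 4.6% and 3.7% for the marked genes. Ier2 and Egr1 were covered over 100% of their length in both replicates. Counting only the widest peak, or only the start sites of protein-coding transcripts, also gave 9 genes.

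**Figure D2:**
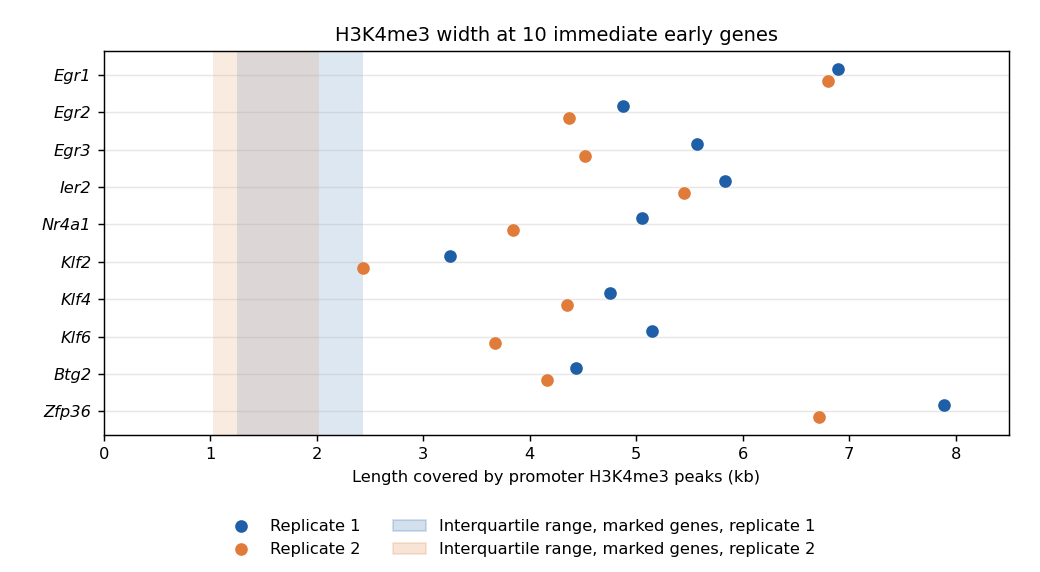
Length covered by the H3K4me3 peaks that overlap each promoter (horizontal axis, kb), with 1 point per replicate and shading for the interquartile range of all marked genes in each replicate. All genes lay above the shaded range of their own replicate, with Klf2 nearest to it.

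Open chromatin was long at most of these promoters, and few of them ranked high by fold. This depended on the measure: ranked by −log10 p, 4 of the 10 genes were in the top 25% in both replicates, against 1 by fold. ATAC-Seq peaks covered more promoter bases than at the median marked gene for 9 of 10 genes in each replicate. The fold was below the median for 6 genes in both (Egr1, Egr2, Egr3, Ier2, Klf4 and Zfp36). The share of all marked genes below the median in both replicates was not computed, so this count of 6 only describes the 10 genes. Zfp36 had the most open sequence, 2020 and 2246 bases (97.8 and 98.3 percentiles), with the lowest folds of the 10, 6.35 and 5.3. Klf2 was the reverse, with 1 compact peak of 631 and 712 bases at folds of 22.8 and 18. In the order by fold, Klf2 led, and Klf6, Nr4a1 and Btg2 followed with replicate ranges that overlapped from each to the next. Klf4, Egr3, Egr2 and Ier2 formed a lower run that overlapped likewise, above Egr1 and Zfp36.

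Egr1, the zinc finger factor induced by growth factors in most cell types, lies at chr18:34859823-34864984 on the plus strand with 2 annotated start sites. A single H3K4me3 peak of 6894 bases in replicate 1 and 6803 bases in replicate 2 ran from before the first start site past the end of the gene, at folds of 30.7 and 21. The open region was about as long in both replicates, 1266 and 1273 bases at folds of 7.51 and 6.22, and reached over the second start site. H3K27ac was moderate, with folds of 9.66 and 9.49 (30.8 and 35.3 percentiles), so that Egr1 sat in the lower part of the H3K27ac range although its H3K4me3 was among the widest. It had no H3K27me3 peak in either replicate.

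Egr2, a factor known for its role in myelinating Schwann cells and in T cells, lies at chr10:67535475-67542188 on the plus strand and has 6 annotated start sites. H3K4me3 covered 4879 and 4369 bases at folds of 16.4 and 14.5, the H3K27ac peak measured 1684 and 1942 bases at folds of 17.2 and 11.6, and the start site 2394 bp into the gene was covered by H3K4me3 in both replicates and by H3K27ac in replicate 2. The H3K27ac summits lay 237 and 241 bp before the nearest start site. H3K27me3 gave 3 peaks in each replicate, totalling 399 and 1037 bases, at folds between 3.76 and 4.79 and −log10 q-values between 1.49 and 3.35. Only 1 of the 3 peaks in each replicate overlapped one in the other. None of these bases overlapped H3K27ac in the same replicate, and the nearest H3K27ac peak was 322 and 580 bp away. The H3K27me3 peaks lay at either end of the acetylated stretch.

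Egr3, which acts in muscle spindle development and in lymphocytes, lies at chr14:70077203-70082614 on the plus strand with 4 annotated start sites, and it showed the clearest separation of the marks. H3K27ac was weak and lay upstream: the strongest peak had its summit 2016 bp before the first start site in replicate 1 and 2437 bp before it in replicate 2, at folds of 6.9 and 7.36, and covered none of the gene. The open regions were also upstream, and 0% of the gene was in an ATAC-Seq peak. H3K27me3 lay over the gene, with 2 peaks of 1372 bases in total in replicate 1 and 5 peaks of 3471 bases in replicate 2, covering 25.4% and 64.1% of its length. Both peaks of replicate 1 overlapped peaks of replicate 2. The highest folds were 5.25 and 5.48, at the 77 and 79 percentiles of H3K27me3-marked genes, and the gap to the nearest H3K27ac peak was 1115 and 2660 bp. H3K4me3 extended over both, and 96.6% and 43% of the H3K27me3 bases lay within it.

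**Figure D3:**
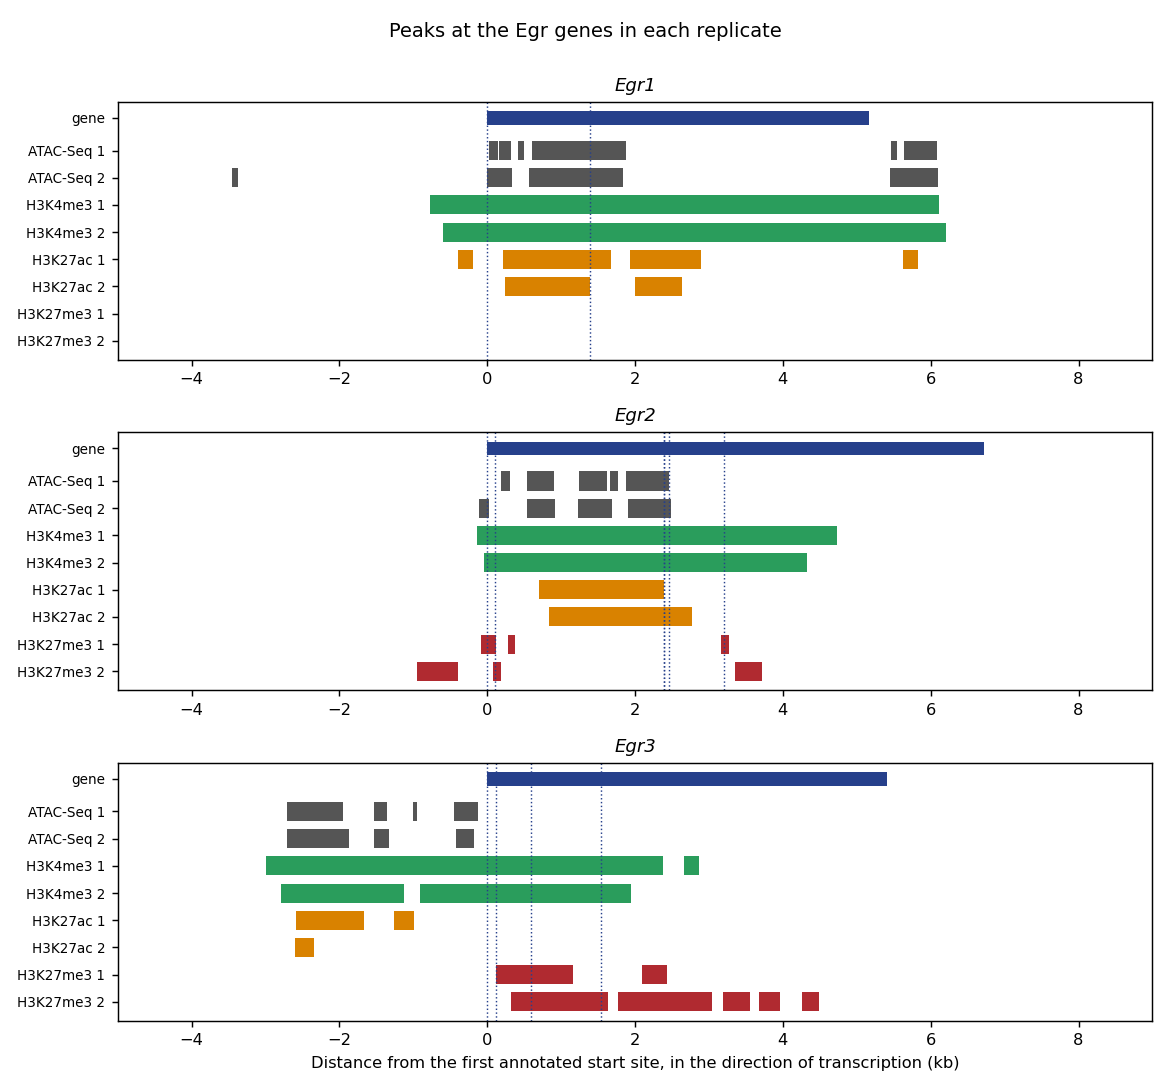
Peaks of each feature and replicate at Egr1, Egr2 and Egr3, drawn to scale against distance from the first annotated start site in the direction of transcription (kb), with dotted lines at annotated start sites and the gene as a bar on top. H3K27ac and H3K27me3 shared no bases at Egr2 or Egr3, and Egr1 had no H3K27me3.

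Nr4a1 encodes an orphan nuclear receptor and lies at chr15:101254269-101274795 on the plus strand, the longest of the 10 genes at 20527 bp, with start sites 12577 bp and 18592 bp downstream of the first. The first start site was covered by ATAC-Seq (folds of 16.2 and 8.43) and H3K4me3 (14 and 11.6) in both replicates and had no H3K27ac peak within 3 kb. The nearest H3K27ac peak was 5942 and 6904 bp away. The second start site carried all 3, with ATAC-Seq at 18.2 and 14, H3K4me3 at 22.7 and 12, and H3K27ac at 5.4 and 6.61. Even there H3K27ac was near the bottom of the marked genes (9.89 and 16.8 percentiles) and lay at both edges of the open region. The third start site had no ATAC-Seq or H3K27ac peak within 3 kb.

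The 3 Krüppel-like factors differed. Klf2, a regulator of endothelial and T cell quiescence at chr8:72319033-72321656 (plus strand), had the highest ATAC-Seq folds of the 10 genes and the lowest H3K27ac folds, 4.98 and 5.52 (6.5 and 10 percentiles). Its H3K27me3 peak in replicate 1 was 103 bases long with a −log10 q-value of 0.934, and replicate 2 had none. Klf4, known as a reprogramming factor, at chr4:55527143-55532466 (minus strand), had 1 H3K27ac peak of 1983 and 1770 bases over its first start site at folds of 21.5 and 18.3. Klf6, a broadly expressed factor at chr13:5861482-5870394 (plus strand), had the most extended H3K27ac of the 3, with 5 peaks in each replicate covering 5330 and 4812 bases. Its strongest H3K27ac peak reached folds of 29.1 and 27.1 with a summit 602 and 513 bp before the start site. At Klf6 a gap in H3K27ac, between peaks ending 194 and 201 bp upstream and peaks beginning within 9 bp of the start site, fell on the open region, which spanned 606 and 572 bases. No H3K27me3 peak was found at Klf4 or Klf6, and the start of a noncoding gene, 1700016G22Rik, lay within 6 kb of a Klf6 start site, so peaks between them cannot be told apart by gene.

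**Figure D4:**
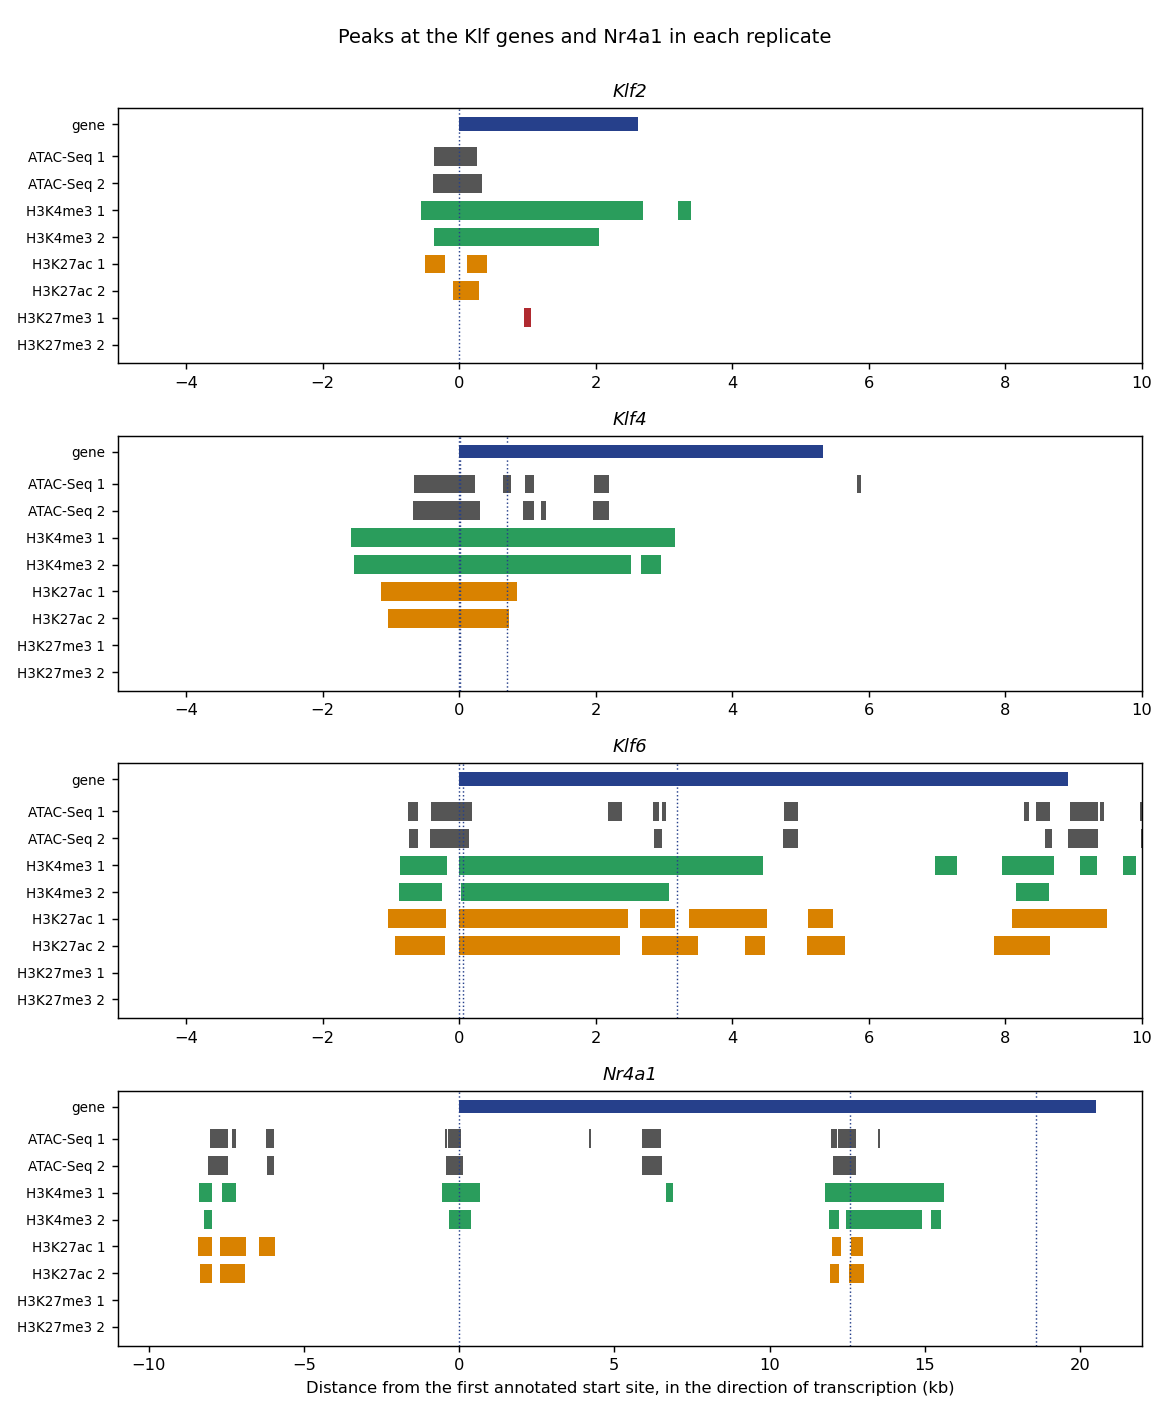
Peaks of each feature and replicate at Klf2, Klf4, Klf6 and Nr4a1, drawn to scale against distance from the first annotated start site (kb, a wider range for Nr4a1), with dotted lines at annotated start sites. Klf6 carried H3K27ac along much of the gene, Klf2 had short ATAC-Seq and H3K27ac peaks at its start site under a longer H3K4me3 peak, and Nr4a1 had H3K27ac at its second start site and upstream of its first but not at the first.

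Ier2, a nuclear protein of the early response, lies at chr8:84661331-84662852 on the minus strand and is the shortest of the genes at 1522 bp. Its H3K4me3 fold was the highest of the 10 in both replicates, 44.8 and 30.4 (96.7 and 91.8 percentiles). H3K4me3 and H3K27ac each covered 100% of the gene in both replicates, with H3K27ac folds of 22.2 and 21.1. All 5 ATAC-Seq peaks of each replicate overlapped peaks of the other, and they were spread from upstream of the start site into the gene, where the strongest summits lay 1132 and 1154 bp past it. The start of the noncoding gene Gm26664 lay within 6 kb.

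Btg2 and Zfp36 are the members that limit growth and mRNA lifetime. Btg2, at chr1:134075170-134079120 (minus strand), had H3K4me3 over 98.8% and 96.5% of the gene, H3K27ac folds of 24.5 and 17.3, and an ATAC-Seq summit 4 bp past the start site in replicate 1 and 45 bp before it in replicate 2. Zfp36, at chr7:28376784-28380253 (minus strand), had the highest H3K27ac folds of the 10, 32.2 and 27.4 (92.8 and 94.3 percentiles), over 6965 and 5813 bases. Its strongest H3K27ac summits lay 1595 and 1543 bp before the first start site, where the noncoding gene Gm44710 starts within 6 kb, and the H3K27ac peak over the second start site was weaker, at folds of 13.4 and 11.8. The H3K27ac folds of Zfp36 and Klf6 overlapped in percentile, as did those of Ier2, Btg2 and Klf4. Egr2 and Egr1 followed, and Egr3, Nr4a1 and Klf2 came last with overlapping percentiles.

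In each gene and 50 kb either side, the 10 genes had a median of 21 and 16.5 ATAC-Seq peaks, against 12 and 8 over all protein-coding genes. The medians were 4.5 and 3 for H3K4me3 (2 and 2 over all genes), 6 and 4 for H3K27ac (2 and 2), and 0 and 0 for H3K27me3 (0 and 0). Averaged over replicates the ATAC-Seq median was 18.8 ± 3.18 (SD, n = 2). Part of this lay at the promoters of other genes. Of 211 and 164 ATAC-Seq peaks in the 10 windows, 44 and 32 lay at the gene's own promoter and 61 and 46 at the promoter of another gene. The remaining 106 and 86 were distal, of which 78 and 72 overlapped a peak of the other replicate. These distal peaks overlapping the other replicate had a median of 8 and 8 per gene, against 2 and 2 over all protein-coding genes. Btg2 had the most of them, 16 and 14, and Egr2 and Ier2 had 2 in each replicate. The Ier2 and Zfp36 windows were crowded, with 5 and 6 other protein-coding genes. At Zfp36 the H3K27ac peaks of other genes, 7 and 8, included those at Plekhg2, Paf1, Med29, Rps16, Samd4b and Supt5. At Ier2 they included Nacc1, Trmt1 and Cacna1a.

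**Figure D5:**
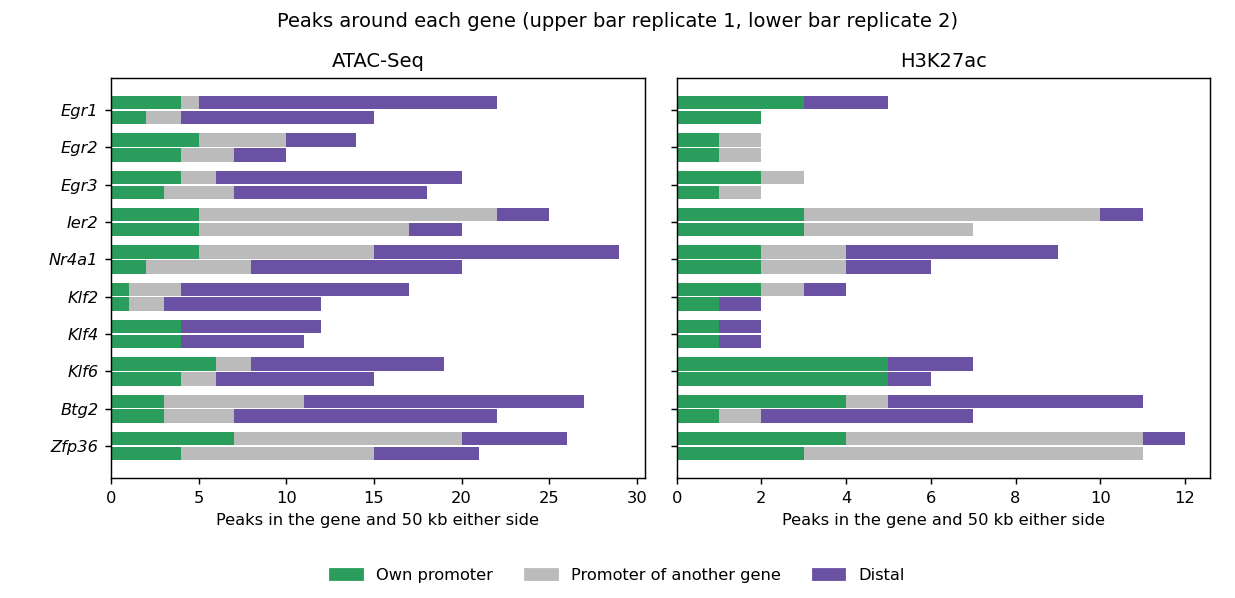
Number of ATAC-Seq and H3K27ac peaks in each gene and 50 kb either side (horizontal axes), split into the gene's own promoter, promoters of other genes and distal peaks, with replicate 1 above replicate 2. Klf4 had no peak at another promoter, while 7 of 12 and 8 of 11 H3K27ac peaks around Zfp36 lay at other promoters.

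Distal H3K27ac, the usual sign of an active enhancer, was found in both replicates for 5 of 10 genes (Nr4a1, Klf2, Klf4, Klf6 and Btg2), against 16.9% of all protein-coding genes. The Egr genes, Ier2 and Zfp36 did not meet this rule. Zfp36 had a distal H3K27ac peak in replicate 1 alone that overlapped a promoter peak of replicate 2. With that peak included, 9 distal H3K27ac peaks in each replicate overlapped a peak of the other (of 19 and 10 distal peaks in all), 8 of the 9 overlapped an ATAC-Seq peak, and their folds of 4.39 to 9.51 in replicate 1 and 3.19 to 8.96 in replicate 2 were lower than at most of the promoters. The strongest at Klf4 had its summit 17441 and 17510 bp downstream of the first start site, beyond the end of the gene, at folds of 9.51 and 6.99, with an H3K4me3 peak over it at 12.2 and 7.49. At Btg2 the strongest lay 14254 and 14388 bp upstream, at folds of 7.83 and 8.96, and others lay beyond the gene's end. At Nr4a1 the stronger of a pair of peaks lay 7574 and 7524 bp upstream, at folds of 5.75 and 8.46. The Klf6 peak was near the 3′ end of the gene, and the Klf2 peak, 23085 and 23042 bp upstream, was weak, at 4.88 and 3.19. Egr1 had no distal H3K27ac peak in both replicates, but a distal H3K4me3 peak 27486 and 27544 bp downstream of its start site reached folds of 20 and 14.1. Which gene a distal peak acts on cannot be read from these lists, and the windows are longer for longer genes.

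Genes with related roles were counted by the same rule, as a description beside the 10 genes. Over all protein-coding genes the active state held for 44.4%. Of the genes marked in both replicates, 22.1% were in the top 25% for H3K27ac and 8.61% in the top 10% for H3K4me3 width. Of the 7 AP-1 genes, 6 were in the active state, 5 were in the top 25% for H3K27ac and 7 in the top 10% for H3K4me3 width. Fosl1 was the one with H3K27me3. The highest H3K27ac folds were at Fosb (39.9 and 29.8) and Jun (30.3 and 28). Of 12 other immediate early genes, 7 were active and 6 were in the top 10% for width. Egr4 and Nr4a2 carried H3K27me3 in both replicates, Nr4a3 in 1 replicate, Arc and Egr4 lacked H3K27ac, and Gadd45b had ATAC-Seq alone. By the lower of the 2 replicate folds, H3K27ac was highest at Nr4a3 (29.1 and 25.7) and Maff (35.3 and 25.7). In replicate 1, Klf10 (29.5) lay above Nr4a3. H3K27me3 was therefore found at Egr2, Egr3 and Egr4 of the Egr family, and not at Egr1.

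The factors that act upstream, SRF, the Elk factors, CREB and the MAP kinases, were active in 9 of 10 cases, with Map2k1 carrying ATAC-Seq alone. In the top 10% for H3K4me3 width there were 0 of 10, against 8.61% of the genes marked in both replicates. A count of 0 in so short a list is near that share. Elk4 (60.6 and 52.2) and Creb1 (43.3 and 30.5) had their highest H3K27ac folds. Nab1 and Nab2, co-repressors of the Egr factors, were both active. Of 8 paralogs of the Klf, Btg and Zfp36 genes, 6 were active and 6 were in the top 10% for width, and Btg1 and Klf5 had H3K27me3 in 1 replicate. By the lower of the 2 replicate folds, H3K27ac was highest at Btg1 (33 and 29.4) and Klf13 (28.4 and 26.5). Klf9 had the highest fold of these paralogs in replicate 1, 49.1, with 24.3 in replicate 2.

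Markers of cell identity were read the same way. Of 13 MuSC markers, 12 were active, against 44.4% of all protein-coding genes, with Calcr lacking H3K27ac. In the top 10% for H3K4me3 width there were 9, against 8.61% of the genes marked in both replicates, so wide H3K4me3 was also found at genes of cell identity. Over those with a peak, their median H3K27ac fold was 9.81 and 9.52, against 19.3 and 14.4 for the 10 early genes. By the lower of the 2 replicate folds, Spry1 (21.5 and 19.5) and Pax7 (15 and 14.7) were highest. In replicate 1, Myod1 (15.5) and Msc (15.4) lay above Pax7. The active state held for 1 of 10 endothelial markers (Tek), 1 of 9 blood markers (Cd68), 3 of 10 fibro-adipogenic markers (Dpt, Col15a1 and Cd55) and 2 of 10 myofibre markers (Mylpf and Actn3). Single features were more common at these markers of other cells than the active state. ATAC-Seq peaks were found in both replicates at 8 endothelial, 7 blood, 6 fibro-adipogenic and 9 myofibre markers. This is near the 67.8% of all protein-coding genes with such a peak. H3K4me3 was found at 5, 4, 5 and 5 of them, against 60.8% of all protein-coding genes, and H3K27ac at 1, 1, 3 and 3, against 46.6%. Of these markers, chosen for naming after their values were seen, Pecam1 and Cdh5 had ATAC-Seq alone. Ptprc had H3K4me3 in replicate 1 alone, and ATAC-Seq and H3K27ac in replicate 2 alone. Other endothelial and blood markers had more: Kdr, Esam, Egfl7, Cldn5, Laptm5, Coro1a and Spi1 had ATAC-Seq and H3K4me3 in both replicates. Laptm5 and Spi1 also had H3K27ac in replicate 1. Pdgfra had ATAC-Seq, H3K4me3 and H3K27me3, and Dcn, Lum and Ly6a had none of the 4 features. The part of other cells, and of the digestion, in the early genes' peaks was not tested.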

How the data were processed

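ATAC-Seq and ChIP-seq libraries of sorted MuSCs were deposited as 1 MACS2 peak list per replicate. Per the study's methods and the submitters' processing notes, the authors trimmed reads with Trim Galore 0.6.10, aligned them to mm10 with BWA 0.7.17-r1188, removed low-quality and duplicate reads with SAMtools 1.5 and Sambamba, dropped blacklisted regions with bedtools, shifted ATAC-Seq reads for the Tn5 offset with deepTools 3.5.5, and called peaks with MACS2 2.2.6. The H3K27me3 lists were filtered by p-value and so reach q-values near 1, while the others were filtered by q-value. The deposited columns hold a score, a fold enrichment, −log10 p-values and −log10 q-values, with no read counts, so the depth of each library is unknown, no interval can be given, and lists held from 6064 (H3K27me3) to 140716 (ATAC-Seq) peaks.

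Peaks were overlapped (at least 1 bp) with GENCODE M21 promoters and windows in Python 3.11.15 with numpy 2.4.6 and pandas 2.3.3, and the overlap code was tested on simulated peaks. Groups and replicate numbers came from the sample titles. No test was run: the members and lists were chosen with earlier results of these data known, so counts stand beside the share of all protein-coding genes. The text names all 10 members, the 2 genes of each related list and of the MuSC markers with the highest lower-replicate H3K27ac fold, and the genes lacking the state most of these lists have. Genes of these lists with a higher fold than 1 of those 2 in replicate 1 are named too. Markers of other cells were named after their values were seen. Exons of GENCODE and RefSeq were kept out of the printed promoter stretches unless stated. The alternatives were other promoter widths, windows, peak limits, start sites and rankings, and each replicate alone.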

Additional observations from a re-analysis of the deposited data

How the results depend on the processing

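Of 74 values recomputed under an alternative, 63 stayed within 1.5 times the reported count or within the spread of the replicates. With peaks of −log10 q of at least 5, H3K27me3 marked 0 of the 10 genes in both replicates, and the active state then held for 9. Klf2 also became active with H3K27me3 limited to q of at most 0.05 (8 genes). Ranked by −log10 p, the top 25% in both replicates held 4 genes for ATAC-Seq and 3 for H3K4me3. With 1 replicate left out, the top 25% held 2 genes for ATAC-Seq and from 1 to 3 for H3K4me3. The median number of peaks per gene moved with the window: 11.2 ATAC-Seq and 3.25 H3K27ac peaks at 20 kb, and 31.8 ATAC-Seq, 6.25 H3K4me3 and 9 H3K27ac peaks at 100 kb. Within 1 kb of a start site, Egr3 had no H3K27ac in both replicates (9 genes). The alternatives for the top 10% of H3K4me3 width were added after the data were seen, and each of them also gave 9 genes. No paired analysis was possible because the values come from no test between groups, each feature being a different assay. Peak lists without read counts do not show signal below the peak limit, so an absent peak is not an absent mark.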
